A study of Mus musculus with 6 samples.

Results

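The genes described here encode the subunits of the mitochondrial respiratory chain and ATP synthase that are made from the nuclear genome. They were taken by gene symbol, with a fixed pattern for the Nduf, Sdh, Uqcr, Cyc1, Cox and Atp5 names, and no measured value entered the choice. The pattern found 83 of the 24452 gene symbols in the files: 37 of complex I, 4 of complex II, 9 of complex III, 16 of complex IV and 17 of complex V. It does not take up Cox4i1, Cox4i2 and Ndufab1, which are also chain subunits and are given separately. It does take up a few proteins that are not constant subunits, such as Cox7a2l, a factor of supercomplex assembly, and Atp5s and Atp5sl. Ndufa4 is grouped with complex I by its name, although its protein is now counted with complex IV.

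The libraries were made from polyadenylated RNA of the small intestine of C57BL/6 mice at postnatal day 14. They comprised 3 labelled wild type and 3 labelled Erk1/2 -/-, that is, lacking both kinases of the ERK pathway in the name of the study. The labels name no Cre driver, no cell type in which the alleles were deleted and no sex, and do not say whether the 3 libraries of a group came from separate animals. The p-values therefore measure the spread between these 6 libraries, which may be technical. Mapk3 (Erk1) did not differ in the direction the label implies: replicates 1 to 3 read 3142, 2788 and 2004 normalised counts in wild type, and 3363, 2280 and 2734 in the group labelled knockout. It did not pass the test (limma adjusted p = 0.819), so the second group is called labelled knockout throughout.

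The respiratory chain sits in the inner mitochondrial membrane. Complexes I and II pass electrons from NADH and succinate to ubiquinone, complex III passes them to cytochrome c and complex IV to oxygen, while complexes I, III and IV pump protons whose return drives ATP synthesis in complex V. Except for complex II, the subunits come from both genomes, and the nuclear set includes catalytic proteins with iron-sulphur, flavin or haem groups as well as many small accessory proteins. Absorptive enterocytes are rich in mitochondria, and their nutrient transport and fat absorption use ATP.

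The values are normalised counts, whole numbers on a scale shared by the 6 files, whose sums ran from 13641468 to 17153570 per library. A gene was tested where at least 3 libraries reached 10, which 14686 genes did, and a gene is said to have risen or fallen where its adjusted p in limma was under 0.05. Markers of intestinal position set 2 libraries apart. The mean log2 level of 6 proximal genes minus that of 5 ileal genes was 1.09 in wild type 3 and -0.35 in labelled knockout 1, against 4.87 to 7.41 in the other 4. Exocrine pancreas genes summed to 38372 in wild type 1 against 270 to 7831 elsewhere. Results are therefore also given without wild type 3 and labelled knockout 1, in a fit of 4 libraries that kept genes reaching 10 in 2 of them. That fit is not free of position. Its wild type libraries scored 5.66 and 4.87 and its labelled knockout libraries 6.82 and 7.41, so position and genotype cannot be told apart in it.

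Transcripts of the subunits were more abundant in the labelled knockout libraries. Summed over all 83 genes, they made 226322, 206076 and 190426 normalised counts in the wild type libraries (replicates 1 to 3, an order kept for all genes). The labelled knockout libraries held 340468, 294091 and 298669. Every labelled knockout library lay above every wild type library. As a share of each library's total this was 1.503% ± 0.148 (SD, n = 3) in wild type and 1.99% ± 0.023 (SD, n = 3) in labelled knockout. In this whole tissue RNA, more cells rich in mitochondria and more subunit RNA per cell cannot be told apart.

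Of 78 subunit genes tested, 21 rose and 0 fell, where 4.85% of all genes tested rose and 3.94% fell (8.79% in either direction). An unadjusted p under 0.05 in limma was reached by 58, with 0 of them lower. Over all 14686 genes tested it was reached by 4455, in either direction. The log2 fold change, labelled knockout minus wild type, was above 0 in 76 of 78 and had a median of 0.56, beside -0.01 over all genes. In 66 of 78 every labelled knockout library exceeded every wild type library, against 19.8% of all genes. In the fit without wild type 3 and labelled knockout 1, 40 of 78 rose, among them all 21, against 13.7% of all genes, and the median was 0.40. The count changed when single libraries were left out, and so did the share of all genes that rose. Without labelled knockout 1, 37 rose (10.6% of all genes), and without labelled knockout 2, 7 rose (2.22%). Without wild type 3, 1 rose (1.86%). None rose without wild type 1, wild type 2 or labelled knockout 3, where 0.492%, 0.388% and 0.179% of all genes did.

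In a fit with the trend of mRNA length removed, the share called was near the background. That fit was chosen after seeing the data, and it also takes away whatever short mRNAs have in common, subunits included. Labelled knockout 1 was high in short mRNAs of all kinds, and the subunits are mostly short, as described further on. When the trend with length was removed from each library, 6 of 78 rose (Cox5b, Cox7a1, Ndufb5, Ndufc1, Ndufs4 and Sdhc), which is near the 8.01% of all genes that rose in that fit. The median log2 fold change was then 0.25 against 0.00 over all genes, with 65 of 78 above 0, and 25 of 78 had groups that did not overlap against 21.8% of all genes. Only Cox5b, Cox7a1, Ndufc1 and Ndufs4 belonged to both sets of calls.

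**Figure D1:**
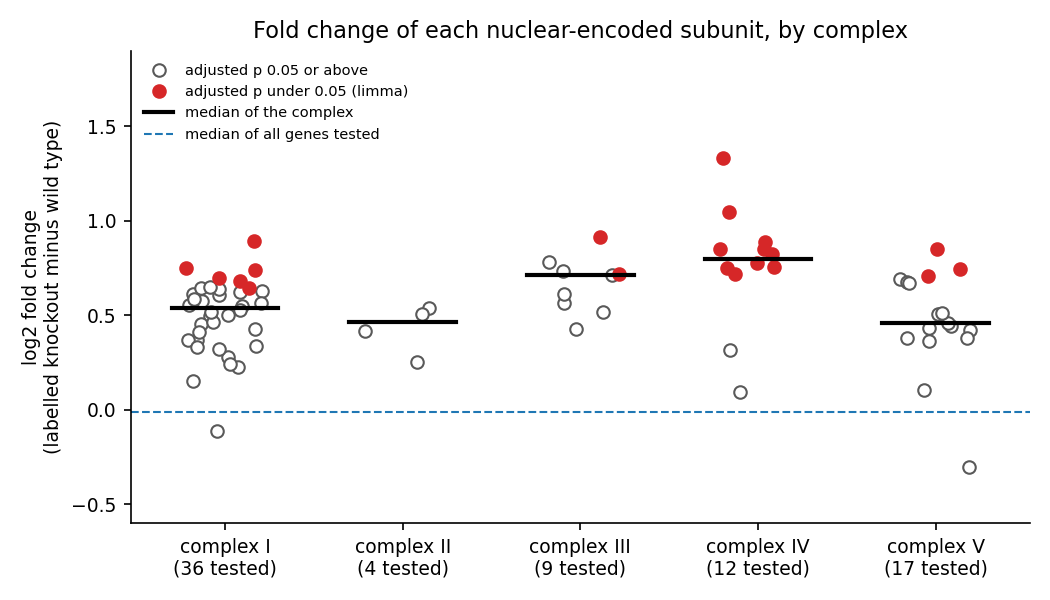
Log2 fold change (labelled knockout minus wild type, limma) of each of the 78 subunit genes tested, by complex; filled points passed the test, black bars are medians and the dashed line is the median of all genes tested. Nearly all points lie above the dashed line, and 10 of the 12 complex IV genes are filled against none of the 4 complex II genes.

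**Figure D2:**
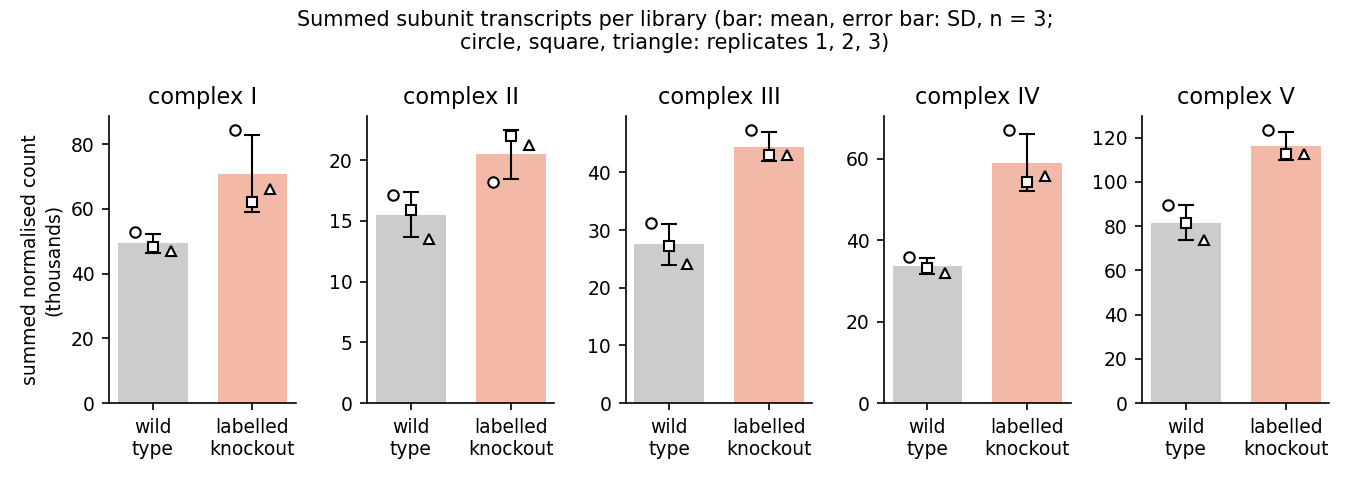
Summed normalised counts of all members of each complex in the 6 libraries; bars are means, error bars SD (n = 3), and the circle, square and triangle are replicates 1, 2 and 3. In all 5 complexes the labelled knockout libraries lie above the wild type libraries, and labelled knockout 1 is the highest library in 4 complexes and the lowest of its group in complex II.

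Sequences of the promoters are shown for those risen subunits with a letter match to an NRF1 or ETS site lying wholly within the stretch shown, the factor families best known at respiratory chain genes, and for Sdha as a subunit that did not pass the test. Each run covers 150 bases before and 30 after the start given by RefSeq on GRCm38.p6, read 5′ to 3′ on the gene's strand, with the matches in capitals. The motifs searched, on both strands, were GCGCA and GCGC with any 1 base between them for NRF1, CCGGAAG for ETS factors such as GABP, AAGAT followed directly by GGCGG for YY1, and T, any base and AAGGTCA for ERR receptors. Matches to CCGGAAG on the other strand appear as CTTCCGG.
Ndufa11: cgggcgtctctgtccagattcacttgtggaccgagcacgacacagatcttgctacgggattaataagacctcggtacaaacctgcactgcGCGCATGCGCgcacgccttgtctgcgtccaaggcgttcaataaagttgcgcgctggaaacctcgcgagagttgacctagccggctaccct
Cox6a1: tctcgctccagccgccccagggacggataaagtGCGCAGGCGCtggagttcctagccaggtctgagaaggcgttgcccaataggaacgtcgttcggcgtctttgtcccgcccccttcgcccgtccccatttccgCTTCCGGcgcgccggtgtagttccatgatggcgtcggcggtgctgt
Cox6b1: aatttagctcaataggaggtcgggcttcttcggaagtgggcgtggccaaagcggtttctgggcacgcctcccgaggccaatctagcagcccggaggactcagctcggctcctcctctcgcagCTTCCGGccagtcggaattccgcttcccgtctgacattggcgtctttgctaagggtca
Cox8a: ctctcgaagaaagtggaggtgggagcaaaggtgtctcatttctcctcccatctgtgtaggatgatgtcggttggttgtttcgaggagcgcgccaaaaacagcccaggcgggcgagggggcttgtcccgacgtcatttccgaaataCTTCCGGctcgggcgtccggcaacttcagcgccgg
Atp5k: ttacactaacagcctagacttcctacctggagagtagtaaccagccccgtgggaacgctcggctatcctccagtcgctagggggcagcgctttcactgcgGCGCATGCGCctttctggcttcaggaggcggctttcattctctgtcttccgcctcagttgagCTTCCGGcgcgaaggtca
Sdha: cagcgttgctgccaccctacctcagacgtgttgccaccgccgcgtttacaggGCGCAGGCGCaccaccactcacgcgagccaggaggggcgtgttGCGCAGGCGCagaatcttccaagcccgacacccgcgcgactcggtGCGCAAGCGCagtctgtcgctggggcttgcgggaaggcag
They lie at chr17:56717612-56717791 (plus strand), chr5:115348929-115349108, chr7:30626085-30626264, chr19:7217587-7217766, chr5:108434370-108434549 and chr13:74350211-74350390 (all minus strand), in this order. Ndufa11 has 1 NRF1 match, Cox6a1 and Atp5k have 1 of each kind, and Cox6b1 and Cox8a have an ETS match only. Sdha has 3 NRF1 matches in the same stretch.

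RefSeq windows from 250 bases before to 50 after the start were found for 69 of the 83 genes, 75 windows in all. Of these windows 24% held the NRF1 letters, 21.3% the ETS letters, 9.33% the YY1 letters and 4% the ERR letters. Over all 32851 windows the shares were 4.6%, 8.86%, 0.852% and 1.28%. Base composition differed as well, with a median GC content of 57.3% in the subunit windows and 52.7% over all. Subunits that rose were found with and without a match. Among tested genes with a window, 3 of 16 with and 15 of 50 without the NRF1 letters rose, and the median log2 fold changes were 0.55 and 0.56. With the ETS letters 6 of 16 rose and without them 12 of 50, at medians of 0.60 and 0.54. For YY1 the counts were 1 of 6 and 17 of 60, at medians of 0.40 and 0.57. By complex, NRF1 letters were found at 7 of 32 complex I genes, 2 of 3 of complex II, 1 of 5 of complex III, 1 of 13 of complex IV and 6 of 16 of complex V. A match is a description of letters only, and no binding was measured.

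Complex I, the NADH dehydrogenase, had 6 of 36 tested genes that rose and 0 that fell, beside 4.85% and 3.94% of all genes. Its median log2 fold change was 0.54. The strongest by p-value was Ndufc1, an accessory subunit of the membrane arm, encoded at chr3:51404677-51408988 on the minus strand of mm10. Its normalised counts were 431, 446 and 437 in wild type and 890, 811 and 749 in labelled knockout. The wild type libraries were nearly equal, and the groups did not overlap. The log2 fold change was 0.89 ± 0.13 (SE; limma adjusted p = 0.0176), or 1.86-fold.

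Ndufs4, an accessory subunit beside the NADH-oxidising module whose loss causes a mitochondrial encephalopathy in mice, read 736, 706 and 710 in wild type and 1353, 1157 and 1099 in labelled knockout. All libraries of the second group were higher, and the log2 fold change was 0.74 ± 0.13 (SE; limma adjusted p = 0.0262). Ndufb6, of the membrane arm, read 909, 821 and 884 against 1375, 1370 and 1343, a log2 fold change of 0.65 ± 0.12 (SE; limma adjusted p = 0.0273). Its labelled knockout libraries lay close together, at 1363 ± 17.2 (SD, n = 3). Ndufa11, whose promoter is among those printed, read 1126, 995 and 982 against 2132, 1507 and 1624 (limma adjusted p = 0.0436). Ndufa1, a small membrane arm protein encoded on the X chromosome, read 783, 723 and 669 against 1398, 1046 and 1106 (limma adjusted p = 0.0438). In both genes labelled knockout 1 was the highest library, and the groups did not overlap.

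The catalytic core of complex I oxidises NADH and reduces ubiquinone. Of its 7 nuclear genes 0 rose and 0 fell by limma. In 5 of them labelled knockout was higher without overlap between groups, against 19.8% of all genes. All 7 log2 fold changes were above 0, from 0.15 to 0.56. Ndufv1, which binds NADH and flavin, read 2891, 2638 and 2197 in wild type and 3985, 3255 and 3654 in labelled knockout, groups that did not overlap (log2 fold change 0.50 ± 0.16 SE, limma adjusted p = 0.0919). Ndufs7, an iron-sulphur subunit near the ubiquinone site, overlapped between groups, with 2917, 2755 and 2264 against 3923, 2743 and 3307 (0.32 ± 0.18 SE, limma adjusted p = 0.275). Ndufs1, the large iron-sulphur subunit, overlapped too, at 1385, 1348 and 1081 against 1191, 1644 and 1408 (0.15 ± 0.18 SE, limma adjusted p = 0.593). The core genes Ndufs3, Ndufs8 and Ndufv2 had log2 fold changes of 0.41, 0.56 and 0.53 and limma adjusted p of 0.107, 0.0939 and 0.0517.

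When wild type 3 and labelled knockout 1 were left out, 15 complex I genes rose, where 13.7% of all genes did. With the length trend removed, the complex I genes that rose were Ndufb5, Ndufc1 and Ndufs4, where 8.01% of all genes rose. Ndufa4, assigned here by name, read 2202, 2113 and 1992 against 3382, 2687 and 2692 and did not pass (log2 fold change 0.47 ± 0.15 SE, limma adjusted p = 0.0884). Ndufa4l2, its hypoxia-inducible relative, was low, at 76, 84 and 61 against 121, 46 and 55. Only labelled knockout 1 lay above the wild type libraries there, and the log2 fold change was -0.11 ± 0.37 (SE). Ndufs5 was listed at 0 in all 6 libraries and was not tested.

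Complex II, succinate dehydrogenase, is also a citric acid cycle enzyme and is made wholly from nuclear genes. None of its 4 genes passed the test by limma, although 3 had an unadjusted p under 0.05, as did 4455 of all 14686 genes tested. Sdha, the flavoprotein that oxidises succinate, read 7315, 6552 and 5469 in wild type and 6131, 8670 and 8355 in labelled knockout. The groups overlapped, with labelled knockout 1 below wild type 1 and 2, and the fold change was 1.19 with a 95% interval of 0.863 to 1.65. Sdhb, the iron-sulphur subunit, did not overlap, with 3289, 3004 and 2501 against 4379, 4165 and 4146 (log2 fold change 0.54 ± 0.15 SE, limma adjusted p = 0.0672). The membrane anchors Sdhc and Sdhd had log2 fold changes of 0.42 and 0.51 (limma adjusted p = 0.101 and 0.0738), both without overlap. In the fit of 4 libraries Sdhb, Sdhc and Sdhd rose, at log2 fold changes of 0.40, 0.39 and 0.52 (limma adjusted p = 0.0416, 0.0375 and 0.0205). In that fit 13.7% of all genes rose.

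Complex III, the cytochrome bc1 complex, was higher in all 9 of its genes without overlap between groups, and 2 of the 9 passed the test, beside 19.8% and 4.85% of all genes. With the length trend removed 0 of 9 rose, beside 8.01% of all genes in that fit. Uqcr10, a small accessory subunit, read 2422, 2235 and 2223 in wild type and 4909, 3997 and 4109 in labelled knockout. All labelled knockout libraries were higher, labelled knockout 1 the most, and the log2 fold change was 0.91 ± 0.14 (SE; limma adjusted p = 0.0196), or 1.885-fold. Cyc1, cytochrome c1 with its haem group, read 4674, 3761 and 3237 against 5960, 6399 and 6638. Here labelled knockout 1 was the lowest library of its group, and the log2 fold change was 0.72 ± 0.17 (SE; limma adjusted p = 0.049).

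The other catalytic protein, the Rieske iron-sulphur protein Uqcrfs1, read 3747, 3174 and 2540 against 4408, 5884 and 5108 (log2 fold change 0.71 ± 0.19 SE, limma adjusted p = 0.0654). Uqcrc1, a core protein facing the matrix, read 6882, 5517 and 4469 against 8772, 10027 and 9860 (0.78 ± 0.19 SE, limma adjusted p = 0.0508). For Uqcrq, a small subunit, the 3 wild type values agreed closely, at 3980, 4018 and 4026, while labelled knockout read 8742, 4893 and 5358 (0.61 ± 0.23 SE, limma adjusted p = 0.133). Its high value came from labelled knockout 1. With that library and wild type 3 left out, 6 of the 9 genes rose, where 13.7% of all genes did.

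Complex IV, cytochrome c oxidase, had 10 of 12 tested genes that rose, beside 4.85% of all genes, and the median log2 fold change was 0.80. Its catalytic centres are encoded by mitochondrial DNA, so the nuclear genes of this complex are those for the surrounding subunits. Their summed level was 33642 ± 1945 (SD, n = 3) in wild type and 59027 ± 6987 (SD, n = 3) in labelled knockout, a ratio of 1.755. The corresponding ratios were 1.437 in complex I, 1.32 in II, 1.615 in III and 1.425 in V. The difference between complexes was not tested, and complex IV also has short mRNAs, with a median of 594.5 nt against 2065.5 nt in complex II. In the fit of 4 libraries 10 rose as well, beside 13.7% of all genes, and with the length trend removed 2 did, beside 8.01%. The order of the complexes by share of calls was not the same in every fit. With the position score as a covariate 9 of 9 complex III genes and 10 of 12 complex IV genes rose, beside 17.3% of all genes. With the length trend removed 1 of 4 rose in complex II.

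Cox5a, a subunit on the matrix side, is encoded at chr9:57521274-57532426 on the plus strand. It read 3262, 2919 and 3107 in wild type and 6741, 6703 and 5770 in labelled knockout. Each labelled knockout library was above every wild type library by a wide margin, and labelled knockout 1 and 2 were nearly equal. The log2 fold change was 1.05 ± 0.14 (SE; limma adjusted p = 0.0137), the smallest p-value among the subunits, and 0.63 with the length trend removed (limma adjusted p = 0.0625). Cox5b, the zinc-binding neighbour of Cox5a, read 5243, 4907 and 4756 against 10235, 8528 and 8249 without overlap. Its log2 fold change was 0.85 ± 0.15 (SE; limma adjusted p = 0.0245), and it was also called with the length trend removed (0.53, limma adjusted p = 0.0464).

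Cox7c read 2050, 1897 and 1847 against 3542, 3057 and 3204 (log2 fold change 0.76 ± 0.13 SE, limma adjusted p = 0.0238). Cox7b, encoded on the X chromosome, read 2688, 2368 and 1923 against 4443, 4129 and 4231 (0.89 ± 0.16 SE, limma adjusted p = 0.026). In Cox7b the wild type libraries were the more spread, and in Cox7c the labelled knockout libraries. Cox6c was a further gene that rose (log2 fold change 0.78 ± 0.17 SE, limma adjusted p = 0.0393).

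**Figure D3:**
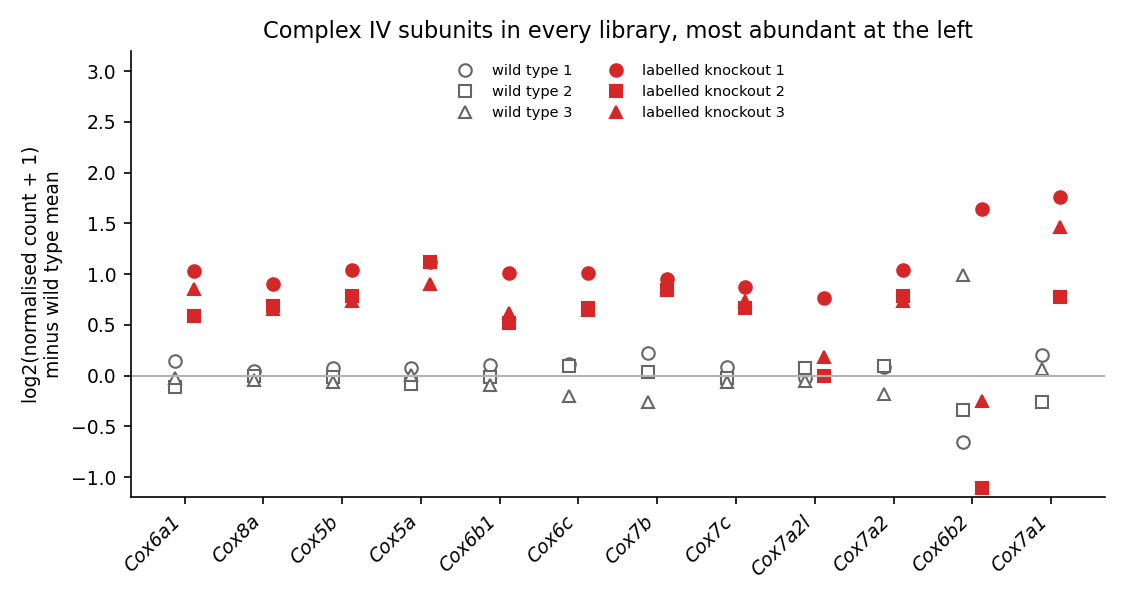
Log2(normalised count + 1) minus the wild type mean for each of the 12 tested complex IV genes; open symbols are wild type, filled symbols labelled knockout, and the circle, square and triangle are replicates 1, 2 and 3. The groups are separate in 10 genes and overlap in Cox7a2l and Cox6b2, and labelled knockout 1 is the highest of its group throughout.

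Several complex IV subunits exist as a widespread isoform and a form of muscle, brown fat or testis. The widespread forms Cox6a1, Cox6b1, Cox7a2 and Cox8a rose, while Cox4i1, outside the naming pattern, did not pass. Cox6a1 read 7070, 5919 and 6309 in wild type and 13120, 9664 and 11551 in labelled knockout (log2 fold change 0.82 ± 0.17 SE, limma adjusted p = 0.0363). Cox8a read 6272, 6057 and 5867 against 11358, 9750 and 9559 (0.75 ± 0.14 SE, limma adjusted p = 0.0294). Cox7a2 read 1566, 1569 and 1301 against 3033, 2531 and 2451 (0.85 ± 0.15 SE, limma adjusted p = 0.0256). Cox6b1 rose too (log2 fold change 0.72 ± 0.17 SE, limma adjusted p = 0.0482). Their groups did not overlap, and labelled knockout 1 was the highest library in each.

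Among the restricted forms, Cox6a2 and Cox8b of striated muscle and brown fat stayed near 0, at 4 to 14 and 1 to 3 normalised counts over the 6 libraries. Cox7b2 and Cox8c, known from testis, were listed at 0 in all libraries. So were Ndufs5 and the assembly gene Sco2, which respiring cells use, so a listed 0 need not mean absence. Cox7a1, the heart and skeletal muscle form, read 192, 139 and 174 in wild type and 566, 287 and 462 in labelled knockout. Every labelled knockout library was higher, and the log2 fold change was 1.33 ± 0.27 (SE; limma adjusted p = 0.035), or 2.52-fold, the highest of the 78 genes. It was still called with the length trend removed, at 0.75 (limma adjusted p = 0.0452). Per kilobase of mRNA its labelled knockout level was 1115 ± 359 (SD, n = 3), against 4054 ± 479 (SD, n = 3) for Cox7a2.

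Markers of striated muscle were mixed. Of 12 such genes 5 were tested, with 0 that rose and 2 that fell, where 4.85% of all genes rose and 3.94% fell. The 2 were Ckm and Myh7 (log2 fold change -1.26 and -2.83, limma adjusted p = 0.0348 and 0.018). Acta1 was variable, at 37, 27 and 379 against 339, 77 and 775 (log2 fold change 1.89 ± 1.17 SE, limma adjusted p = 0.313). Ttn and Actn2 did not pass either (0.39 and -0.43, limma adjusted p = 0.692 and 0.675). The list summed to 219 to 562 in wild type and 200 to 886 in labelled knockout. Mb, myoglobin, read 0 or 1 in all libraries. Of the 6 fat markers, Adipoq and Lep were listed at 0 in all libraries, Ucp1 read 0 to 2 and Plin1 read 0 to 3. Cidea was low, at 27, 21 and 16 against 14, 7 and 7 (log2 fold change -1.15, limma adjusted p = 0.102). Cidec read 3172, 3251 and 3637 against 4188, 3748 and 4239, without overlap (0.28, limma adjusted p = 0.214). The part of muscle or fat cells in the Cox7a1 result was not tested. Cox6b2, a testis form, had high values in wild type 3 and labelled knockout 1, the libraries with the lowest position scores, at 99, 123 and 311 against 489, 72 and 131. Its groups overlapped (log2 fold change 0.10 ± 0.73 SE). Cox7a2l overlapped as well, at 1728, 1854 and 1686 against 2990, 1755 and 1986 (0.32 ± 0.21 SE, limma adjusted p = 0.35).

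Complex V, ATP synthase, had 3 of 17 genes that rose, and 15 of 17 were higher without overlap between groups, beside 4.85% and 19.8% of all genes. With the length trend removed 0 of 17 rose, beside 8.01% of all genes in that fit. The genes of its catalytic head did not pass. Atp5b, the catalytic beta subunit, read 24253, 22615 and 19586 in wild type and 28488, 31631 and 29940 in labelled knockout, without overlap (log2 fold change 0.44 ± 0.17 SE, limma adjusted p = 0.135). Atp5a1, the alpha subunit, read 19307, 17111 and 14792 against 21116, 24370 and 23449, also without overlap (0.43 ± 0.17 SE, limma adjusted p = 0.147). The genes of the central stalk, Atp5c1, Atp5d and Atp5e, had log2 fold changes of 0.36, 0.69 and 0.51 (limma adjusted p = 0.166, 0.0648 and 0.183).

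The 3 genes that rose belong to the membrane part. Atp5g1 is 1 of 3 genes for the same proton-carrying c subunit, whose precursors differ only in the import sequence. It read 2415, 2018 and 2120 in wild type and 4761, 3337 and 3811 in labelled knockout (log2 fold change 0.85 ± 0.17 SE, limma adjusted p = 0.0348). Its paralogues did not pass: Atp5g2 read 2656, 2538 and 2540 against 4207, 2971 and 3286 (0.42 ± 0.16 SE, limma adjusted p = 0.14), and Atp5g3 read 8061, 7106 and 6495 against 11245, 9597 and 10044 (0.51 ± 0.15 SE, limma adjusted p = 0.0802). None of these 3 genes had overlapping groups. The difference between the paralogues was not tested, and how reads shared by near-identical copies were counted is not given in the sources used here.

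Atp5l and Atp5k encode subunits g and e, which hold ATP synthase dimers together. Atp5l read 2592, 2609 and 2552 in wild type, a tight group, and 4957, 4025 and 3755 in labelled knockout (log2 fold change 0.71 ± 0.15 SE, limma adjusted p = 0.038). Atp5k read 1517, 1513 and 1369 against 3010, 2207 and 2222 (0.74 ± 0.16 SE, limma adjusted p = 0.0419). With the length trend removed neither passed (limma adjusted p = 0.279 and 0.525). Atp5s read 112, 132 and 92 against 125, 81 and 71 and was 1 of the 2 subunit genes with a log2 fold change under 0, at -0.30 ± 0.26 (SE). In the fit of 4 libraries it fell (log2 fold change -0.67, limma adjusted p = 0.045).

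The labelled knockout libraries were not alike. Labelled knockout 1 was the highest of its group in 65 of the 78 genes: 33 of 36 in complex I, 1 of 4 in II, 5 of 9 in III, 12 of 12 in IV and 14 of 17 in V. In log2 units from the wild type mean, the median subunit stood at 0.80 in labelled knockout 1, 0.45 in 2 and 0.47 in 3, while the medians over all genes were within 0.02 of 0. Among wild type libraries, wild type 1 was the highest in 62 genes and wild type 3 the lowest in 53.

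The lead of labelled knockout 1 went with mRNA length. Its difference from the mean of labelled knockout 2 and 3 had a Spearman rho of -0.542 with length over the 78 subunit genes, and of -0.527 over 14089 genes with a known length. These points are genes measured in the same 3 libraries, so the values are descriptions. Below 1000 nt, labelled knockout 1 was the highest of its group in 49 of 49 subunit genes and in 753 of 910 genes of all kinds. From 1000 to 2000 nt the counts were 15 of 23 and 2253 of 3239, and from 2000 nt on 1 of 6 and 3220 of 9940. The median log2 fold change declined along the same classes, from 0.62 through 0.50 to 0.34 in subunits and from 0.40 through 0.16 to -0.10 in all genes. Subunit genes that rose had a median length of 596 nt, and the others 934 nt. For the log2 fold change over all 6 libraries, rho with length was -0.374 in subunits and -0.296 in all genes. For labelled knockout 2 and 3 minus wild type 1 and 2 it was weaker, at -0.203 and -0.119. That difference leaves out wild type 3 as well as labelled knockout 1, and the part of each was not tested.

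**Figure D4:**
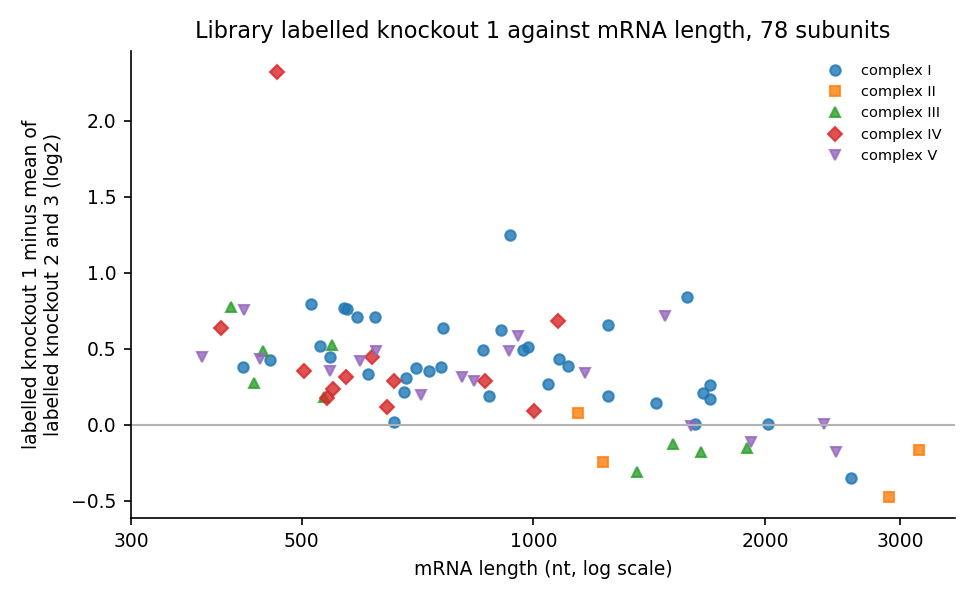
Difference of labelled knockout 1 from the mean of labelled knockout 2 and 3 (log2) against mRNA length (nt, log axis) for the 78 subunit genes tested, with 1 symbol and colour for each complex. All 49 genes under 1000 nt lie above 0, and the genes of complex II, which are long, lie near or under 0.

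Some other markers differed between the groups as well, where 4.85% of all genes rose and 3.94% fell. Endothelial genes summed to 3719 to 4417 in wild type and 2251 to 2458 in labelled knockout, and 3 of 5 fell, among them Pecam1 and Cdh5 (log2 fold change -0.74 and -0.78, limma adjusted p = 0.029 and 0.0259). Of 7 leukocyte genes 3 fell, among them Cd79a and Ptprc (log2 fold change -2.82 and -1.32, limma adjusted p = 0.0108 and 0.0148), with sums of 1782 to 2061 and 1356 to 1886. Smooth muscle genes summed to 46864 to 62986 and 33124 to 47935, with 0 of 8 called, and genes of neurons and glia to 755 to 836 and 429 to 635, with 0 of 7 called. Enterocyte genes summed to 1239488 to 1532623 in wild type and 966634 to 1637744 in labelled knockout, so their sums overlapped. Most of each sum was Apoa4, at 1029973 to 1302781 and 655615 to 1332120. Vil1, Fabp1, Anpep, Cdh17, Epcam and Krt20 were higher in labelled knockout without overlap between groups, against 19.8% of all genes. Alpi, Fabp2, Apoa4 and Apob overlapped. Of the 10 genes 1 rose, Krt20, from 4361 ± 850 to 17499 ± 6402 (SD, n = 3, limma adjusted p = 0.0219). The median log2 fold change of the 10 was 0.50, with 8 above 0 and Apoa4 and Apob at -0.37 and -0.71. The part of these markers in the subunit result was not tested.

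Of 10 tested chain genes outside the naming pattern, 2 rose and 0 fell, beside 4.85% and 3.94% of all genes. Cycs, cytochrome c itself, read 1763, 1582 and 1161 in wild type and 2652, 3716 and 3979 in labelled knockout. It rose (log2 fold change 1.20 ± 0.23 SE, limma adjusted p = 0.0286), with labelled knockout 1 the lowest of its group, and its mRNA is 3123 nt long. Coq7, a hydroxylase of ubiquinone synthesis, rose as well (0.82 ± 0.18 SE, limma adjusted p = 0.0436). Cox4i1, the widespread form of another complex IV subunit, read 9812, 8296 and 8391 against 17266, 10089 and 12052 and did not pass (0.54 ± 0.23 SE, limma adjusted p = 0.161). Its hypoxia-linked form Cox4i2 was low and overlapped (-0.21 ± 0.35 SE). Ndufab1, the acyl carrier protein in complex I, Atpif1, the inhibitor of ATP synthase, and Coq9 had log2 fold changes of 0.37, 0.49 and 0.35 without passing. The electron transfer genes of fatty acid oxidation, Etfa, Etfb and Etfdh, overlapped between groups, at 0.06, 0.11 and -0.09. Cyct, the testis cytochrome c, read 0 or 1 and was not tested.

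Genes needed to assemble the complexes came from 5 lists, and their counts stand beside 4.85% of all genes that rose and 3.94% that fell. Of 13 complex I assembly genes 0 rose, of 4 for complex II 1 rose (Sdhaf1, 0.87 ± 0.19 SE, limma adjusted p = 0.0413), and of 6 for complex III 0 rose. Of 17 for complex IV 1 rose, Cox15 of haem a synthesis (0.57 ± 0.14 SE, limma adjusted p = 0.0494), and of 3 for complex V 0 did; none of the assembly genes fell. Their median log2 fold changes were 0.32, 0.15, 0.12, 0.30 and 0.28, beside -0.01 over all genes. The difference between subunits and assembly genes was not tested.

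Of 16 regulators of mitochondrial biogenesis 0 passed the test by limma, where 4.85% of all genes rose and 3.94% fell. The median log2 fold change of the 16 was 0.20, with 11 above 0. Ppargc1a, the coactivator PGC-1 alpha, read 443, 486 and 280 in wild type and 65, 262 and 138 in labelled knockout. Its groups did not overlap (-1.55 ± 0.49 SE, limma adjusted p = 0.0895). Its mRNA is 6464 nt long, and labelled knockout 1 was its lowest library. Ppard went the other way, also without overlap (0.71 ± 0.22 SE, limma adjusted p = 0.0877). Of 18 genes of the citric acid cycle and pyruvate dehydrogenase 1 rose: Mdh2, malate dehydrogenase, read 11767, 9068 and 8205 against 18040, 24358 and 24614 (1.21 ± 0.21 SE, limma adjusted p = 0.0249). Of 6 kinases and phosphatases of pyruvate dehydrogenase, Pdk1 rose (1.00 ± 0.20 SE, limma adjusted p = 0.0317) and Pdp2 fell (-1.24 ± 0.25 SE, limma adjusted p = 0.035). Of 13 carriers, pores and import genes 5 rose, at a median of 0.42, among them Vdac2, an outer membrane channel (0.81 ± 0.14 SE, limma adjusted p = 0.0245), and Timm23, the inner membrane import channel (0.72 ± 0.12 SE, limma adjusted p = 0.0239).

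**Figure D5:**
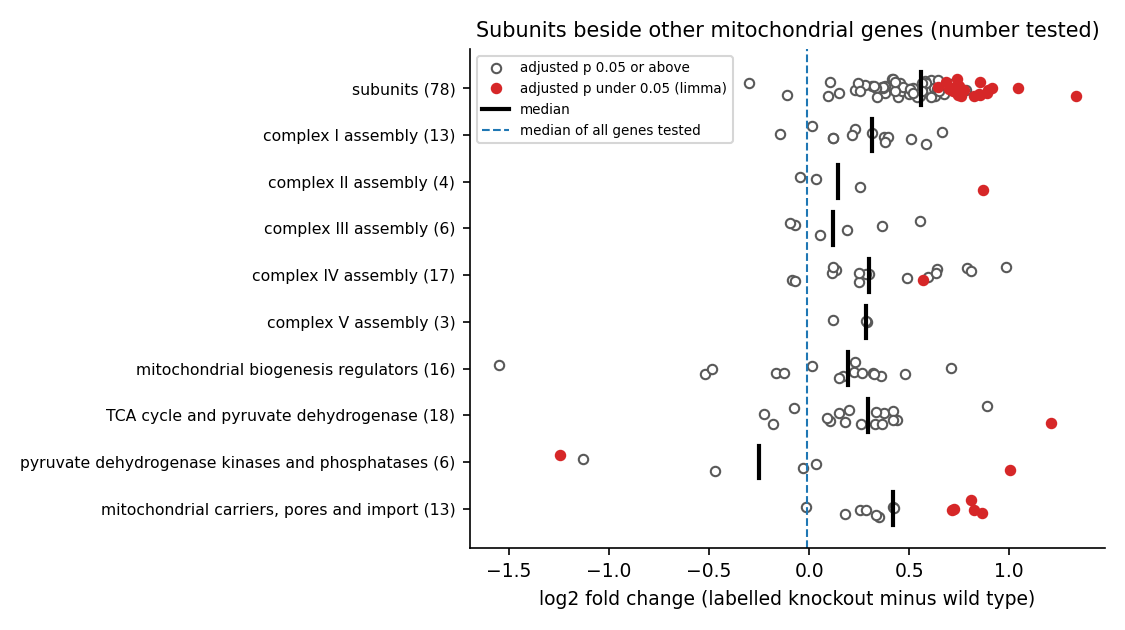
Log2 fold change (labelled knockout minus wild type, limma) of the 78 subunit genes beside 9 lists of other mitochondrial genes, with the number tested in each; filled points passed the test, black bars are medians and the dashed line is the median of all genes tested. The medians of 8 of the 9 other lists lie between the dashed line and the subunit median, and that of the pyruvate dehydrogenase kinases and phosphatases lies below the line.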

How the data were processed

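RNA-seq of mouse small intestine at postnatal day 14 was analysed in 6 libraries, 3 labelled wild type and 3 labelled knockout. Per the submitters' processing notes, TopHat2 2.1.0, HTSeq 0.6.0, DESeq2 and the build mm10 were used; for the annotation, strand setting and multiply mapped reads, the choice is not given in the sources used here. Each deposited file holds 1 score for a gene symbol, a whole number that behaves as a count scaled per library and rounded by the authors, called a normalised count. These are not raw counts, so no count model was run, depth in reads is not known from them, and no interval for counting error is given.

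Values were taken as log2(value + 1) and fitted with limma 3.58.1 in R 4.3.3 (genotype as the only term, eBayes with intensity trend), over the 14686 genes that reached 10 in 3 or more libraries. P-values are two-sided and Benjamini-Hochberg adjusted over all of these, with a threshold of 0.05. Fold changes are on the log2(value + 1) scale. The members and lists were chosen with earlier results of these data known, so a list is described by its counts beside those of all genes, with no test over it. Named with values were, per complex, the 5 called members with the smallest p-values, the 2 most abundant members, the catalytic cores and isoforms. Tested chain genes outside the pattern were named too, as were up to 2 called genes per direction of each other list. Cox6c, Ndufb5, Ndufs5, Sdhc, Atp5s, Ppargc1a, Ppard, Sco2, Acta1, Ttn, Actn2 and Mb were singled out after their values were seen. So were the fat markers and the enterocyte markers other than Krt20. Some genes that this rule takes in are not reported here.

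Coordinates and mRNA lengths are from GENCODE vM21 (GRCm38, the mm10 assembly), using the shortest principal transcript; all 83 members matched, 1 through a synonym. Promoters are from RefSeq, GRCm38.p6. Alternatives comprised other scalings, pseudocounts of 0.5 and 5, no filter, no intensity trend, a replicate block, the segment score as a covariate, each library left out, wild type 3 and labelled knockout 1 left out together, and removal of each library's running trend with mRNA length. The limma code was tested on simulated data. Figures were drawn with matplotlib 3.10.9.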

Additional observations from a re-analysis of the deposited data

How the results depend on the processing

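The count of 21 subunit genes that rose depended on single libraries. Over fits that each left out 1 library it ran from 0 to 37: 0 without wild type 1, wild type 2 or labelled knockout 3, 1 without wild type 3, 7 without labelled knockout 2 and 37 without labelled knockout 1. Per complex the ranges were 0 to 13 in I, 0 to 2 in II, 0 to 6 in III, 0 to 10 in IV and 0 to 6 in V, while the median log2 fold change of the subunits ran only from 0.47 to 0.63. The share of all genes that rose ran from 0.179% to 10.6% in the same fits.

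Scaling by library totals moved the median of all genes from -0.01 to -0.19 and that of the subunits to 0.39. The difference between them was 0.57 under both scalings. With library totals 14 subunits rose, 2 of them in complex I and 1 in III, against 2.83% of all genes. With upper quartile scaling, without the filter, and without the intensity trend, 15, 14 and 14 rose, with 3 in complex I and 1 in III each time. Of all genes 3.73%, 2.77% and 3.80% rose in these fits, beside 4.85% in the main fit. With the segment score as a covariate 62 rose (28 in complex I, 3 in II, 9 in III, 12 in V) against 17.3% of all genes. Without wild type 3 and labelled knockout 1, 40 rose (15 in I, 3 in II, 6 in III, 6 in V) against 13.7% of all genes, 1 fell, and the median was 0.40. Among other counts of the subunits, pseudocounts of 0.5 and 5 gave 20 and 23, against 4.77% and 4.96% of all genes.

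Removal of the length trend was chosen after seeing the data, as was its version with the longest transcript. They gave 6 and 6 genes, against 8.01% and 7.81% of all genes, and medians of 0.25 and 0.24. By complex the first gave 3 in I, 1 in II, 0 in III, 2 in IV and 0 in V, and the second 0 in III, 1 in IV and 1 in V. This fit also takes away whatever short mRNAs have in common, subunits included.

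Deviations of same-numbered libraries from their group means correlated at -0.373, 0.302 and -0.161 over genes. Wild type 3 and labelled knockout 1, the libraries with the lowest position scores, correlated at 0.412. The deviations thus also carry position, and these values cannot decide whether equal replicate numbers mark a pairing. With the replicate number as a block, 0 subunits rose in all and 0 in each of complexes I, III, IV and V, against 0.375% of all genes, with the same median of 0.56.

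Genes that changed sign were all uncalled. With the length trend removed, Atp5e was at -0.0572, Atp5g2 at -0.127, Ndufs7 at -0.0417, Cox6b2 at -0.433, Etfa at -0.117 and Etfb at -0.205. Subunits not described singly that changed sign in that fit were Atp5h, Ndufa3, Ndufa5, Ndufb3, Ndufb10, Ndufb11 and Ndufc2, between -0.12 and -0.01. With library totals, Cox6b2 was at -0.0774, Etfa at -0.11, Etfb at -0.0678, Ndufs1 at -0.0241 and Atp5sl at -0.07. Without wild type 3 and labelled knockout 1, Cox6b2 was at -0.182, Etfa at -0.0389, Etfb at -0.188 and Atp5sl at -0.10. Over the fits that each left out 1 library, Cox6b2 ran from -0.677 to 0.696, Cox4i2 from -0.543 to 0.00901, Etfa from -0.0501 to 0.13, Etfb from -0.256 to 0.355 and Ndufa4l2 from -0.529 to 0.159. Where no cause is named, the cause was not tested. Depth in reads was not known, so low genes such as Cox6a2 and Cox8b were given as values only.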
